A study of Drosophila melanogaster with 36 samples.

Results

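Genes of Drosophila melanogaster with 5 or more separate start-site peaks were examined over the life cycle. In the deposited list of peaks attributed to genes, 821 of 12705 genes (6.46%) had 5 or more peaks, counted by grouping peaks under the gene identifier in their names. These genes held 5849 of the 24264 gene peaks, which is 24.1%, and 22.0% of the summed peak score. The number of peaks was the only criterion, and neither score nor stage entered it. Of the 821, 300 genes had 5 peaks, 155 had 6, 126 had 7, 69 had 8, 46 had 9 and 125 had 10 or more, of which 7 had 20 or more.

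RAMPAGE, which sequences the 5′ ends of capped and complete cDNA, had been applied to pooled whole animals of the y; cn bw sp strain, a laboratory stock with body and eye colour mutations that every group carried. The 36 libraries were 24 embryo libraries from 1 h collections between 0 and 24 h after laying, 5 larval stages (L1, L2 and L3 larvae with dark, light or clear guts), pupae of days 1 to 5, and adults of each sex kept for 5 days after eclosion. Embryos, larvae with pupae, and adults were 3 separate multiplexed libraries, and adult RNA was extracted with another reagent, so that no test was made between them. Each stage was 1 library, and groups of neighbouring hours or stages stood in for replicates. Values are for whole animals, in which fewer cells of a type and less RNA per cell cannot be told apart.

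A gene can be transcribed from several promoters, each with its own first exon, and the choice among them can change the protein's amino end, the untranslated leader or the tissue and time of expression. In Drosophila, long genes of development, muscle and the nervous system are known for such alternative promoters, and Antp, EcR and CycE are classic examples. Not every peak of capped 5′ ends is a promoter, since weak 5′ ends inside exons are also recovered by methods of this kind. Peaks in the list are pooled over the series, so that they show where starts lay and not at which stage each was used.

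Peaks of the many-peak genes were spread over kilobases and were dominated by a single peak. The median distance from the first to the last peak was 13879 bases (quartiles 7328 and 29016), against 2120 bases in genes with 2 to 4 peaks, and the median gap between neighbouring peaks was 1304 bases. The strongest peak held a median of 79.3% of the gene's summed score (quartiles 59.0% and 92.6%), against 94.5% in genes with 2 to 4 peaks. A larger number of peaks by itself allows a longer span and a lower share, so neither difference is a test.

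The other 5028 peaks of these genes were mostly weak. Of them, 53.4% held under 1% of their gene's score and 20.4% held at least 5%. Their median width was 25 bases, against 126 bases for the strongest peaks. In 249 genes (30.3%) the strongest peak was the only peak with at least 5% of the score, while 572 genes had at least 2 such peaks, 294 at least 3, 115 at least 4 and 33 at least 5. Expressed as the number of equally strong peaks that would give the same evenness, the median was 2.03 peaks a gene. No source used here says what the score counts, but recovered reads over the 36 libraries came to a median of 1.95 per unit of summed score in these genes (quartiles 1.61 and 2.51), so a gene's summed score grew with its reads.

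**Figure D1:**
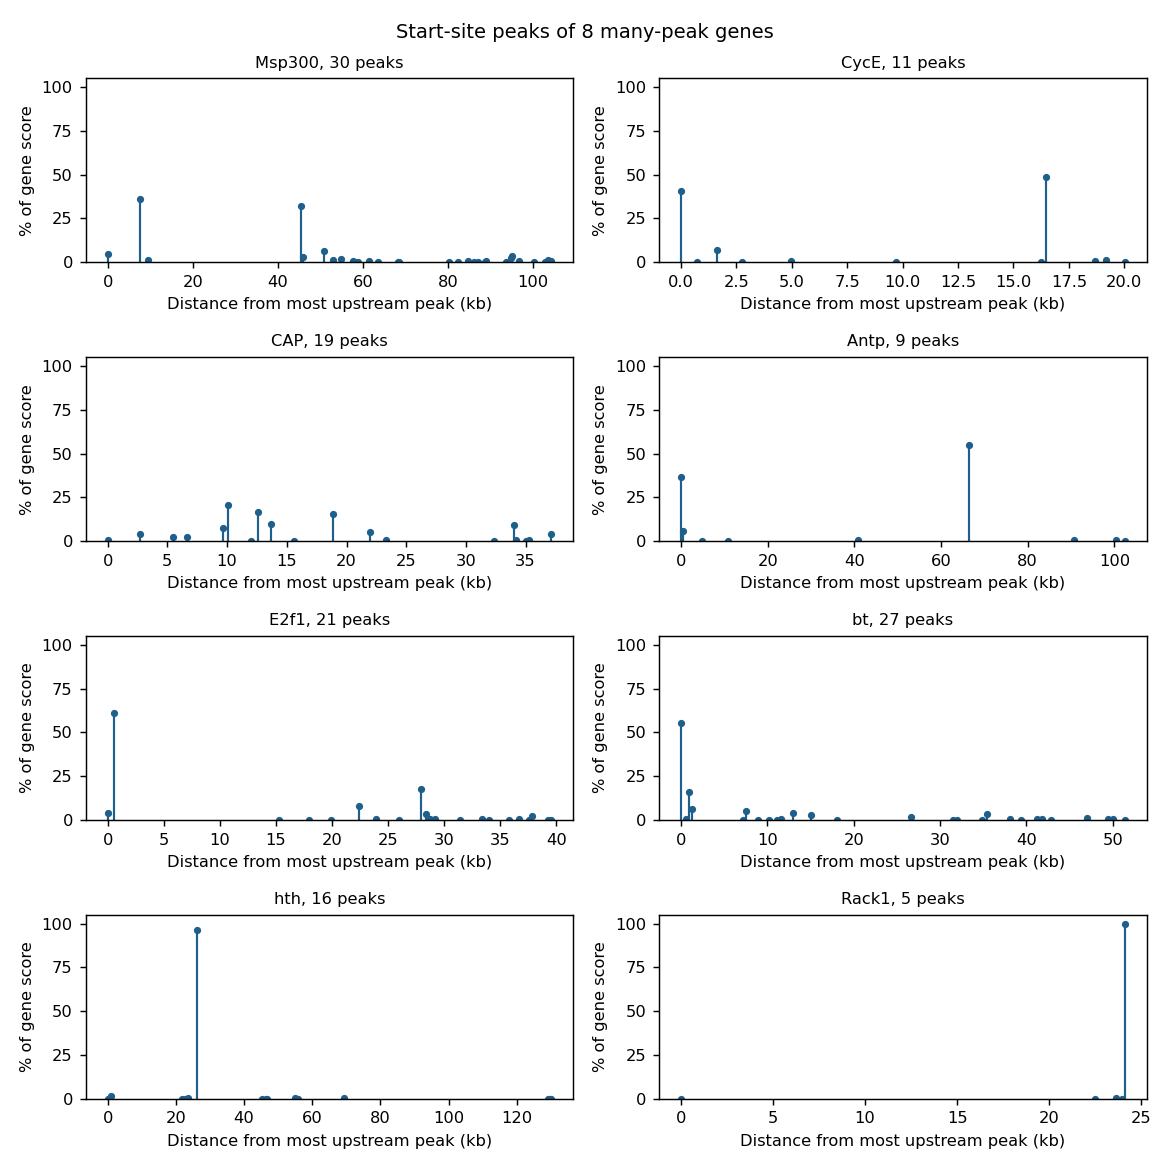
Start-site peaks of 8 many-peak genes, with the distance from the most upstream peak in kilobases on the horizontal axis and each peak's share of the gene's summed score in percent on the vertical axis. Msp300 and CAP spread their score over several peaks, CycE and Antp split it between a pair of distant peaks, and hth and Rack1 hold 96.6% and 99.6% of it in 1 peak.

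The gene with the most peaks was Msp300 (FBgn0261836), which encodes a giant nesprin that links nuclei to the cytoskeleton in muscle. Its 30 peaks lay on the plus strand of dm3 chr2L:5100813-5205128, a span of 104316 bases. The strongest peak, at chr2L:5108490-5108568, held 35.9% of the score and lay 7677 bases below the most upstream one. Another, 45504 bases below it at chr2L:5146317-5146372, held 32.0%. Next came bt, the gene of the titin-like muscle protein projectin, with 27 peaks on chromosome 4, Tm1, a tropomyosin, with 22, and the cell-cycle transcription factor E2f1 and the lipid-carrier precursor apolpp with 21 each. The list of the 12 genes with most peaks went on with the adaptor protein CAP (19 peaks), the ubiquitin ligase ctrip (18), the AMP-activated kinase subunit SNF4Agamma (18), the Hox cofactor hth (16), the giant extracellular matrix protein dpy (16), the nuclear RNA-binding protein spen (15) and mtd (15).

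These 12 genes differed widely in how evenly their peaks were used. CAP had 7 peaks with at least 5% of the score each and its strongest peak held 20.4%. At the other end, hth had 16 peaks over 130071 bases, of which the strongest, at chr3R:6439847-6440086 on the minus strand, held 96.6%. E2f1 lay between them, with 61.2% in a peak 567 bases below the most upstream peak, 17.5% in a peak 27948 bases below it and 7.75% in a further peak at 22411 bases.

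CycE and Antp each had a pair of distant strong peaks. CycE, the cyclin that drives entry into S phase, had 11 peaks on the minus strand of chr2L:15728309-15748333. Of its score, 48.7% fell in chr2L:15731757-15731867 and 40.6% in the most upstream peak, chr2L:15748050-15748333, 16466 bases away. Antp, the homeotic gene of the thorax, had 9 peaks on chr3R:2722619-2824987, with 55.1% of the score in a peak 66401 bases below the most upstream one, which held 36.7%.

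Over all many-peak genes, the lowest shares of the strongest peak among named genes were in the LIM-domain protein gene Lmpt (20.3% over 7 peaks), CAP, the transcription factor ham (25.5% over 9) and the ciliary rootlet gene Root (27.8% over 7). The highest were in the ribosome-associated scaffold Rack1 (99.6%), vsg (99.6%), the dynein light chain ctp (99.4%) and the glycosyltransferase Pgant9 (99.3%), each with 5 peaks. The longest spans were those of the RNA-binding repressor pum (169461 bases), the splicing regulator heph (163639), the cyclic AMP phosphodiesterase dnc (152991) and the endocytic receptor mgl (139913). The shortest were those of RpL32, a ribosomal protein with 5 peaks within 1104 bases, the insulator protein BEAF-32 (1555), the BMP-binding protein cv (1748) and the larval storage protein Lsp1alpha (2009).

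Strongest peaks mostly lay near the upstream end. In 359 of 820 genes (43.8%, Wilson 95% interval 40.4% to 47.2%, counting error only) the strongest peak was the most upstream one, in 199 it was the next and in 118 the third, and in 15 it was the last. With weaker peaks dropped, 33 genes had 5 or more peaks of at least 5% of the score each. In 18.2% of these the strongest was the most upstream of the peaks kept, which is another measure than the order among all peaks. Among the 300 genes with 5 peaks the counts from upstream to downstream were 141, 83, 47, 21 and 8. Accordingly 79.2% of the other peaks lay downstream of the strongest, and these held a median of 0.758% of the gene's score against 1.59% for those upstream. The peak ranked next by score was a median of 4085.5 bases from the strongest and lay downstream of it in 584 genes, and in 83 genes the centres of both were within 500 bases.

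**Figure D2:**
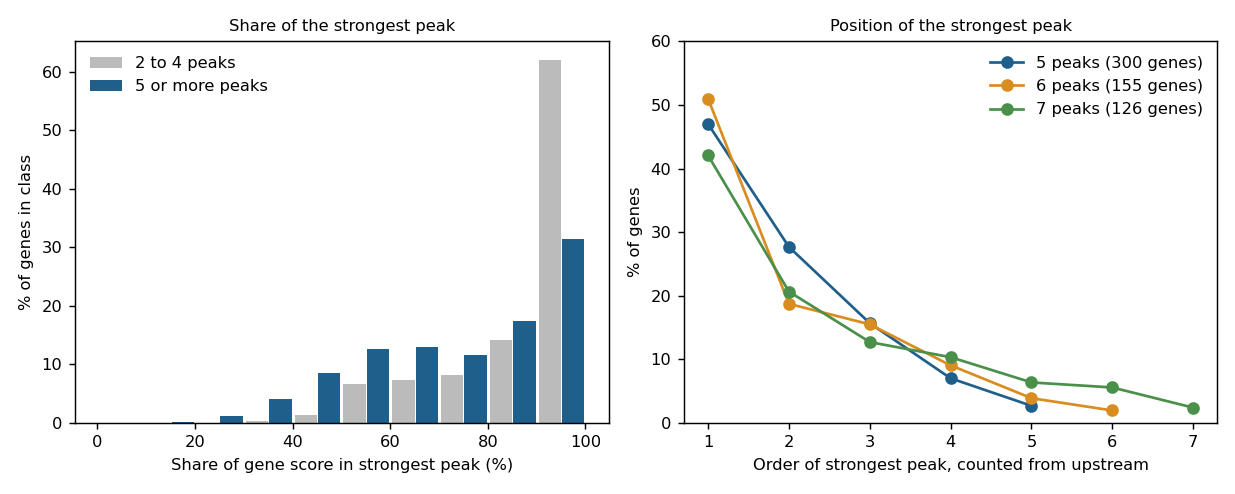
Left, percent of genes by the share of the summed score in the strongest peak, in bins of 10%, for genes with 2 to 4 peaks and with 5 or more. Right, percent of genes in which the strongest peak has a given order from upstream, for genes with 5, 6 or 7 peaks. In the highest bin lie 62.1% of genes with 2 to 4 peaks and 31.4% of genes with 5 or more, and the strongest peak is most often the most upstream one.

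mod(mdg4), a chromatin protein gene of the BTB class, was left out of the count of positions because its 13 peaks lay on both strands. Its transcripts are known to be joined by trans-splicing from both strands of the locus. The strongest of its peaks, at chr3R:17203079-17203150, held 62.5% of the score. It was the only one of the 821 genes with peaks on both strands, beside 390 on the plus strand and 430 on the minus strand.

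Some of the peaks stood far from the annotated gene. In a later annotation (BDGP6.54, used for lengths and not for positions) 711 of the 821 genes were matched, which is 86.6%, and the peak span was longer than the annotated gene in 92 of them and over 2 times as long in 23. In these 23 genes the strongest peak held a median of 93.3% of the score. Rack1 had a span of 24188 bases for 1969 annotated bases, and its strongest peak, at chr2L:7827199-7827289 on the minus strand, was the last. That peak had a score of 36233, and the most upstream peak, 11 bases wide, had a score of 34.

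Just inside the threshold, with exactly 5 peaks, ATPsynC, the ring subunit of ATP synthase, had a summed score of 137110 with 95.2% in the strongest peak. Just outside the threshold, with 4 peaks, the highest scores were those of the chromatin protein HmgZ (109586, 53.0% in the strongest peak) and the autophagy protein Atg8a (103719, 99.4%). These 3 genes had scores of the same order on both sides of the threshold, and 562 genes had exactly 4 peaks.

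Many-peak genes had more annotated transcript starts than other genes, though fewer starts than peaks. The median number of distinct annotated starts was 3, against 1 over all genes, and 122 of 711 (17.2%) had 5 or more against 1.36% of all genes. Still, 673 of the 711 had more peaks than annotated starts, 16 had fewer, and 137 (19.3%) had a single annotated start. Their median annotated length was 13743 bases against 2270.5 over all genes.

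Some peaks were counted for more than 1 gene. Of the 5849 peaks, 230 in 70 many-peak genes were also listed for another gene, among them all 9 peaks of the repressor gene MEP-1 and CG42245, all 7 of waw and bbx, and all 6 of the GAGA factor Trl and CG42507. The symbols Skel and CG43736 were each carried by a pair of identifiers with the same peaks. Without shared peaks, 780 genes still had 5 or more.

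Chromosome 4, a short and largely heterochromatic chromosome, had the highest share of many-peak genes among the main arms, with 21 of 81 genes (25.9%). The X chromosome followed with 178 of 1982 (8.98%), and 2L, 2R, 3L and 3R ranged from 4.85% to 6.35%. Genes of chromosome 4 also had high scores, with a median summed score of 7260 against 1393 over all genes. Among genes in the top 3 deciles by summed score, 18 of 52 on chromosome 4 (34.6%) had 5 or more peaks, against 17.7% over all chromosomes and 22.6% on the X.

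The number of peaks rose with the score. With genes divided into 10 deciles by summed score, no gene in the lowest 2 deciles had 5 or more peaks, 28.4% of those in the highest decile did, and 676 of the 821 many-peak genes were in the top 3 deciles. The median summed score was 9589, against 2636 in genes with 2 to 4 peaks. Any comparison with other genes therefore also compares high with low signal. Shares for breadth and for the embryo tests are also given within high score deciles. The leading function lists are also given for the top 3 deciles together. Shares by highest library, between larvae and pupae and in adults are not split by score.

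Gene functions differed in their share of many-peak genes. Of 21 function lists, the transcription factors with a BTB domain (6 of 9), RNA-binding and splicing regulators (9 of 15), muscle contractile and Z-disc proteins (9 of 18), cytoskeletal linkers and scaffolds (9 of 18) and protein kinases (13 of 35) had the highest shares, beside 6.46% over all genes. In the top 3 deciles by score, 17.7% of all genes had 5 or more peaks. In the same order, these lists there had 5 of 7, 9 of 12, 9 of 17, 9 of 15 and 11 of 21. RNA-binding members were brat and pum, both translational repressors, bru1, bru2, heph, Rbfox1, shep, Syp and msi, with 6 to 13 peaks. The linkers were Msp300, the spectraplakin shot (14 peaks), the polarity kinase par-1 (13), the scaffold dlg1 (11), l(2)gl and cher (9 each), beta-Spec (7), cno (6) and cora (5).

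Lists of the nervous system and of signalling were next. Axon guidance had 6 of 23, cyclic nucleotide enzymes 2 of 9, synaptic vesicle release 5 of 23, nuclear receptors and ecdysone response factors 4 of 21, and cell adhesion 5 of 29. The nuclear receptor Eip75B had 9 peaks over 105296 bases with 34.0% in the strongest, and the ecdysone receptor EcR had 8 over 76608 bases with 51.1%. unc-13, which primes synaptic vesicles, had 10 peaks with 36.0% in the strongest. Of 24 homeotic and segmentation factors, 3 had 5 or more peaks, and all of them were homeotic genes, Antp (9), Abd-B (7) and abd-A (6). Ion channels, with 2 of 30, stood at 6.67%.

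Genes of basic cell machinery and of large secreted families were at the other end. None of 70 mitochondrial ribosomal proteins, 44 proteasome subunits, 44 odorant-binding proteins, 22 Osiris proteins, 16 Jonah proteases or 15 heat shock proteins had 5 or more peaks, nor did more than 2 of 107 cuticle proteins or 1 of 77 respiratory chain subunits. The lists without any such gene held, in that order, 37, 27, 6, 7, 11 and 8 genes in the top 3 deciles by score. Of all genes there, 17.7% had 5 or more peaks. In the lists with fewest genes there, a count of 0 is hard to tell from that share. High signal was also found without many peaks, since 80 of 86 cytoplasmic ribosomal protein genes were in the top 3 deciles by score and 4 of the 86 had 5 or more peaks. Among them were RpL32 and RpS19a, each with 5 peaks and with 93.7% and 97.5% of the score in the strongest. In the muscle list, by comparison, 17 of 18 genes were in the top 3 deciles and 9 had 5 or more peaks.

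**Figure D3:**
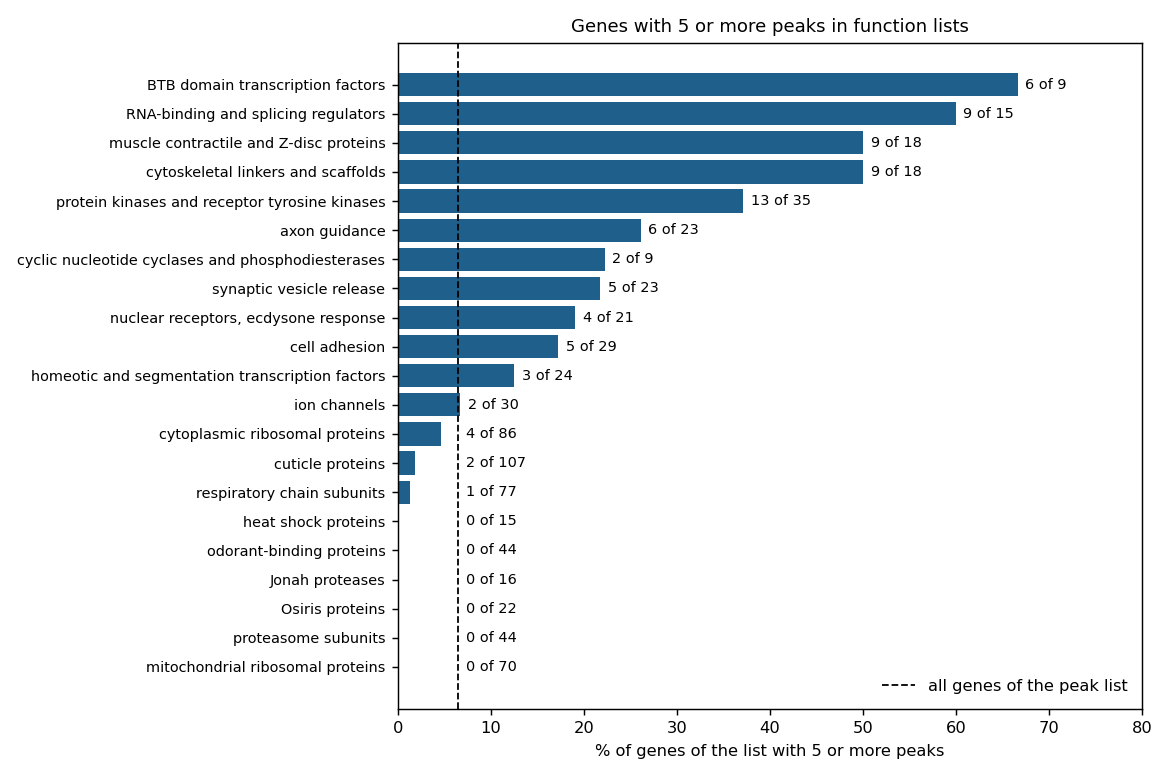
Percent of the genes in each of 21 function lists that have 5 or more peaks, with the counts beside each bar. The dashed line marks 6.46%, the share over all genes of the peak list, and the lists of BTB factors, RNA-binding proteins, muscle proteins and cytoskeletal linkers lie at 50% or more.

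Many-peak genes had start-site signal at nearly every stage. Breadth was counted over the 31 libraries outside the pupae, because minus-strand genes were at 0 in all 5 pupal columns. With at least 1 RPM (reads per 1000000 reads in gene peaks) as signal, the median many-peak gene was present in 31 of 31 libraries, against 30 for genes with 2 to 4 peaks and 18 for genes with 1 peak. In all 31 libraries were 573 of the 821 (69.8%), against 27.8% of all genes. At the higher level of 10 RPM the medians were 30 libraries for many-peak genes and 12 for all genes. That level was reached in all 31 by 367 many-peak genes (44.7%), against 13.5% of all genes.

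Within a score decile the difference at 1 RPM was smaller or reversed. In the highest decile, 88.6% of many-peak genes, 85.1% of genes with 2 to 4 peaks and 76.7% of genes with 1 peak had 1 RPM or more in all 31 libraries. In decile 9 the shares were 77.0%, 70.1% and 63.6%. In decile 8 they were 53.8%, 56.2% and 48.9%, so that many-peak genes were not the broadest there. In decile 7 the share of many-peak genes, 31.5%, lay below those of both other classes, and in decile 6, at 27.8%, above both. With 10 RPM in all 31 libraries, the shares in the highest decile were 76.7%, 77.2% and 68.9%, in the same order. In decile 9 they were 38.3%, 45.9% and 40.7%, and those in decile 8 were 9.43%, 15.9% and 14.9%. At 10 RPM many-peak genes were thus not the broadest in any of these deciles. Reads were also thinned to 698702 a library, which leaves 30 libraries. The shares with at least 1 read in all of them were 86.7%, 85.1% and 75.8% in the highest decile. Of all many-peak genes, 67.2% were present in all 30, against 25.9% of all genes.

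**Figure D4:**
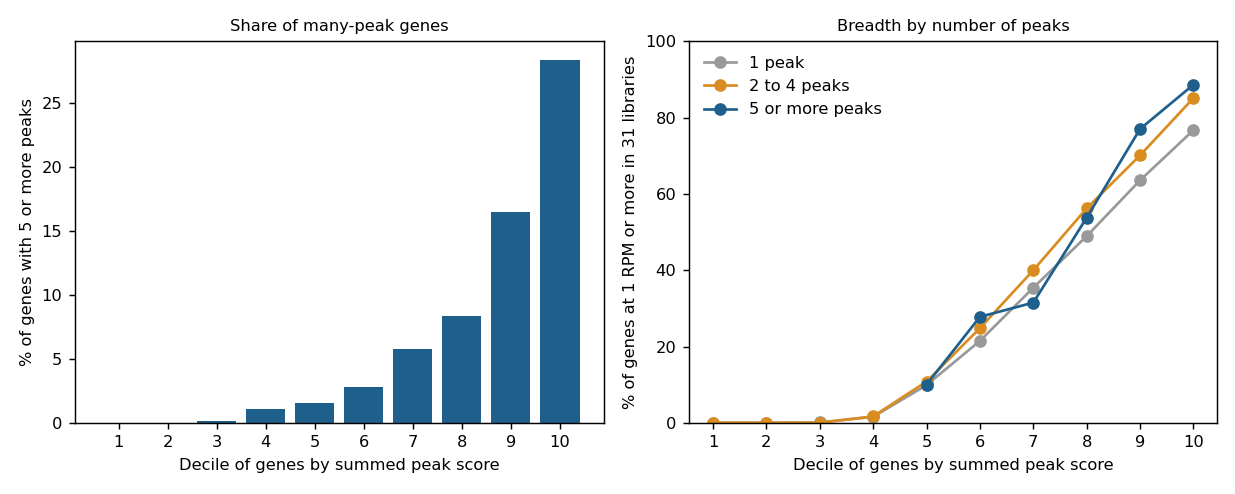
Left, percent of genes with 5 or more peaks in each decile of genes by summed score, rising from 0% in the lowest 2 deciles to 28.4% in the highest. Right, percent of genes with at least 1 RPM in all 31 libraries outside the pupae, by decile, for genes with 1 peak, 2 to 4 peaks and 5 or more, shown where a class holds at least 20 genes. In the highest decile the 3 classes stand at 88.6%, 85.1% and 76.7%, from most to fewest peaks.

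Among the genes present throughout, ATPsynC ranged from 1333 to 12115 RPM over the 31 libraries, and the RNA-binding protein gene Hrb27C from 582 to 10567 RPM. At the other end, 12 of the 821 many-peak genes had 1 RPM or more in fewer than 16 libraries. The narrowest genes with a symbol other than a CG number were the cuticle protein gene Cpr76Bd (2 of 31 libraries), Fbp1, which encodes a fat body receptor for storage proteins (3), and the larval storage proteins Lsp1alpha (5) and Lsp1beta (7).

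These narrow genes were high at a few larval or pupal stages. Lsp1beta was at 14.3 RPM in L1, 589 in L2, 21039 in L3 with dark guts, 4518 with light guts and 389.7 with clear guts. Fbp1 was at 0.701, 0.782, 51.5, 127 and 2617 RPM in the same libraries, and so was highest in the last larval library, where Lsp1beta had already dropped below its level in L2. Cpr76Bd was listed at 0 in every larval library and stood at 0.529, 1365 and 383 RPM on pupal days 3, 4 and 5. Syp, an RNA-binding protein of neuronal timing with 10 peaks, stayed at or below 10.5 RPM in every embryo library. It rose from 1.19 RPM in L1 to 58.8, 112, 242 and 811 RPM in the later larvae. On pupal day 1 it was listed at 1998 RPM. Pupal RPM are taken over plus-strand genes almost alone, so they run higher and are not on the scale of the larval values. A large number of peaks was thus also found in genes that were high at few stages.

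Depth and single libraries bear on all that follows. Recovered reads ranged from 698702 to 16690598 a library, and the share of reads in many-peak genes from 12.4% in L2 to 28.5% at 8 to 9 h outside the pupae. The 3 to 4 h library stood apart from its neighbours. Of 48 many-peak genes under 20 RPM in each library of 0 to 3 h and at 100 RPM or more in each library of 20 to 24 h, 41 were higher at 3 to 4 h than at both 2 to 3 h and 4 to 5 h, with medians of 4.59, 14.3 and 1.74 RPM in these 3 libraries. The same held for 223 of 245 such genes over the whole table. Without this library 739 many-peak genes (90.6%, against 88.8% of all genes tested) passed over the embryo course, beside 746 with it. In the embryo comparisons described further on, 308 were called in place of 241, 344 in place of 333 and 258 in place of 232. Their shares without it were 37.7%, 42.2% and 31.6%, against 23.7%, 45% and 30.6% of all genes tested. Of the 308, 178 went upwards (21.8%, against 11.5% of all genes) and 130 downwards (15.9%, against 12.2%).

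Over the 31 libraries, the highest value of 218 of 818 many-peak genes with any signal (26.7%) fell in 0 to 4 h, of 121 in 4 to 8 h, of 116 in 8 to 12 h, of 107 in 12 to 16 h, of 49 in 16 to 20 h and of 52 in 20 to 24 h. Larvae held 64 of the maxima, the adult male 70 and the adult female 21. In the adult male the share was 8.56%, against 20.7% over all genes, and in 8 to 12 h it was 14.2%, against 6.18%. These shares take no account of the differences between the 3 multiplexed libraries, nor of summed score.

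Genes with the most peaks followed different courses. E2f1 was highest in the first hours, at 2023 RPM in 0 to 1 h and 2497 in 1 to 2 h, dropped to 82.2 RPM at 17 to 18 h, and stood at 953 RPM in the adult female and 169 in the male. hth was at 94.5, 227, 661 and 2368 RPM in the first 4 h and at 497 to 2266 RPM in later embryos. Msp300 climbed from 2.73 RPM in 0 to 1 h to 1358 RPM at 19 to 20 h, and CAP from 0.656 to 461 RPM over the same hours. SNF4Agamma stayed between 116 and 741 RPM in all 24 embryo libraries.

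The course over the 24 embryo hours passed the test for most many-peak genes, as it did for most genes. In a limma F test of a smooth curve, 746 of 816 many-peak genes tested (91.4%) passed at an adjusted p below 0.05, beside 89.8% of all 9940 genes tested. Within score deciles 8, 9 and 10 the shares of many-peak genes were 94.3%, 92.3% and 89.1%, those of genes with 2 to 4 peaks 91.0%, 90.4% and 81.8%, and those of genes with 1 peak 88.7%, 88.5% and 81.6%. Of the 746, the highest hour lay in 0 to 4 h for 237, in 4 to 8 h for 124, in 8 to 12 h for 118, in 12 to 16 h for 117, in 16 to 20 h for 64 and in 20 to 24 h for 86. The share with a highest hour in 8 to 12 h was 15.8%, against 9.56% over all genes that passed, and in 20 to 24 h it was 11.5% against 15.9%.

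The strongest many-peak genes of each period, grouped by the period of their highest hour, had different roles. Those of 0 to 4 h were eff, at 6056 RPM in 2 to 3 h, and wcy, at 4082 RPM in the same hour. With a highest hour in 4 to 8 h, the chromatin protein HmgD reached 14086 RPM at 4 to 5 h and ended at 563 RPM. HmgD had 7 peaks, with 55.1% and 41.4% of its score in a pair of them, so its course is the sum over at least 2 strong start sites.

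Later periods held genes of general and of tissue-specific roles. The RNA-binding protein Hrb27C reached 10567 RPM at 8 to 9 h, and the receptor Notch (symbol N), with 99.1% of its score in 1 of 7 peaks, 6354 RPM in the same hour. Gasp, a chitin-binding protein of the cuticle and trachea, went from 1.53 RPM in 0 to 1 h to 21043 RPM at 15 to 16 h, and ect, an ectodermal secreted protein gene, from 0 to 6602 RPM at 13 to 14 h. The Z-disc protein Zasp66 and the tropomyosin Tm2 were highest at 19 to 20 h, at 5047 and 3393 RPM. ATPsynC, a subunit of the mitochondrial ATP synthase, reached 8513 RPM at 21 to 22 h. The thick-filament protein Mf was highest in that hour too, at 5256 RPM. The 11 genes plotted by period passed the test (adjusted p from 6.26e-13 for HmgD to 9.65e-04 for eff).

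**Figure D5:**
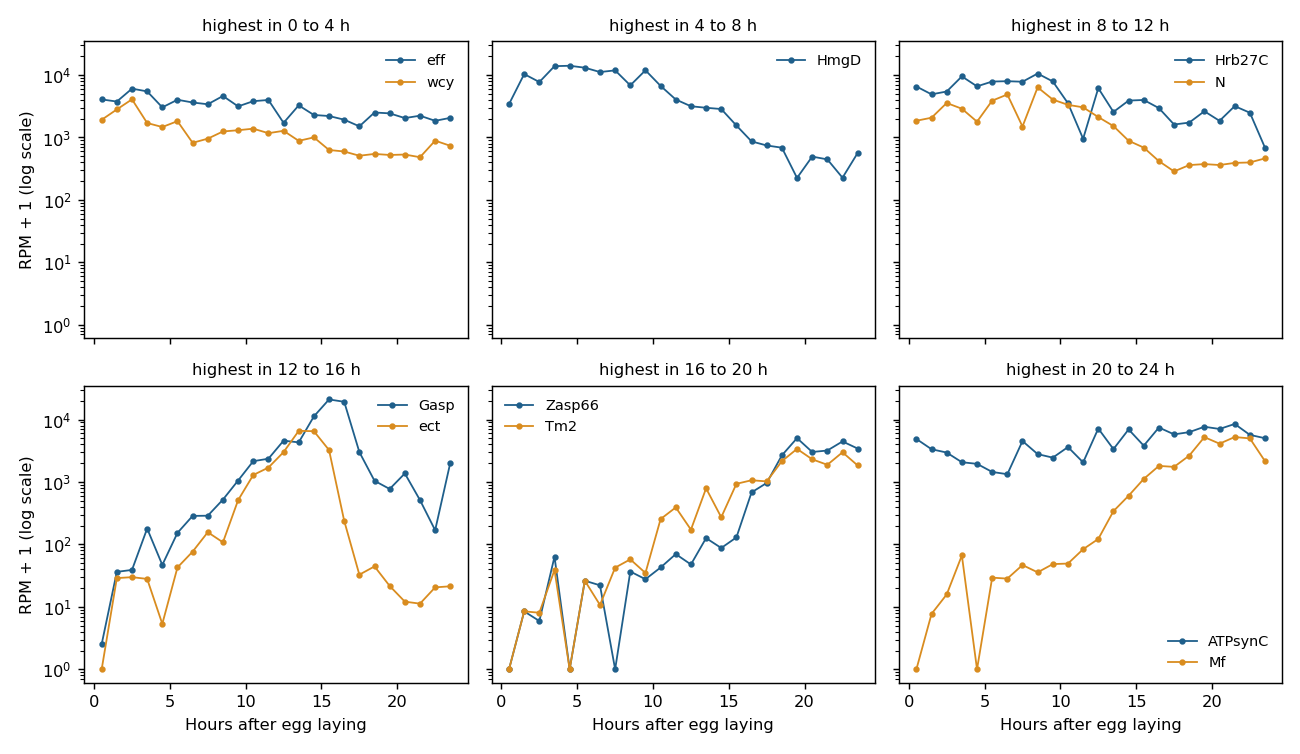
Hourly start-site signal (RPM + 1, log scale) of 11 many-peak genes chosen for the highest RPM in each 4 h period, over the 24 embryo libraries. eff and ATPsynC stay above 1000 RPM throughout, while Gasp, ect, Zasp66, Tm2 and Mf rise over several orders of magnitude, and ect drops again after 16 h. Zasp66, Tm2 and Mf also stand above their neighbours at 3 to 4 h.

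From 0 to 4 h to 4 to 8 h, when the zygotic genome takes over from maternal RNA, 241 of 816 many-peak genes (29.5%) changed at least 2-fold at an adjusted p below 0.05, 139 upwards and 102 downwards. Over all genes tested 17.8% were called, 9.3% higher and 8.53% lower. The share among many-peak genes was above that of genes with fewer peaks within the same score decile too. Of many-peak genes in decile 9, 35.1% were called, against 22.5% of genes with 2 to 4 peaks and 14.0% of genes with 1 peak, and in the highest decile 23.1%, against 14.6% and 14.6%. These are shares of genes in 1 series of libraries, given as a description.

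Genes known from oogenesis were among those that fell most. BicC, a translational repressor of oogenesis with 5 peaks on chr2L:16041983-16047989, was at 1060.0, 831, 34.2 and 4.66 RPM in the 4 libraries of 0 to 4 h, and at 1.16, 0, 1.51 and 0 RPM in those of 4 to 8 h. All 4 later values lay below all 4 earlier ones, and the fall already showed within the first group. The log2 change was -6.24 ± 0.99 (SE, limma, adjusted p = 0.00015, n = 4 libraries a group).

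bru1, the RNA-binding repressor Bruno, fell in the same way, from 1089, 955, 106 and 18.2 RPM to 4.05, 5.52, 1.01 and 4.29 RPM (log2 change -5.64 ± 0.82, adjusted p = 7.32e-05). It has 11 peaks over 109645 bases. The syntaxin Syx4 and the lipophorin receptor LpR1 also fell, by 3.70 and 3.61 on the log2 scale, and did not overlap between groups. dnc was at 334, 379, 397 and 80.1 RPM and then at 21.7, 40.2, 21.0 and 21.5 RPM, without overlap (log2 change -3.28 ± 0.41, adjusted p = 1.65e-05).

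Adhesion and surface proteins were among those that rose most. Fas3, a homophilic adhesion molecule of epithelia and axons with 98.9% of its score in 1 of 6 peaks, was at 7.11, 21.2, 31.4 and 37.7 RPM before and at 88.5, 207, 380.2 and 301 RPM after, without overlap (log2 change 3.30 ± 0.54, adjusted p = 0.000183). The adhesion receptor Cirl, a latrophilin, rose from 16.4, 32.9, 73.0 and 124 RPM to 415, 391, 338 and 764 RPM, again without overlap (3.23 ± 0.69, adjusted p = 0.00175). axed, known from axon degeneration, rose by 3.37 ± 0.67 without overlap.

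apolpp and Fili overlapped between the groups through the 3 to 4 h library. apolpp was at 4.16, 5.98, 6.00 and 19.9 RPM and then at 18.8, 84.4, 187 and 364 RPM (log2 change 3.61 ± 0.65, adjusted p = 0.000406). Fili, a leucine-rich repeat protein, was at 59.2 RPM at 3 to 4 h and at 53.2 RPM at 4 to 5 h (3.44 ± 0.71, adjusted p = 0.00147). Of the homeotic genes, Abd-B was at 6.89, 14.7, 42.3 and 86.6 RPM and then at 104, 169.6, 249.8 and 312 RPM, without overlap. abd-A rose from 3.50 to 51.3 RPM to 59.6 to 144 RPM, without overlap (2.82 ± 0.48). Antp was at 10.3, 15.2, 42.7 and 244 RPM and then at 189, 179.8, 160.3 and 250.5 RPM, and overlapped through the 3 to 4 h library (2.37 ± 0.57). All 3 of these many-peak homeotic genes rose, as did 8 of the 21 other genes of that list.

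Other lists showed changes in both directions. Of the 9 many-peak RNA-binding genes, bru2, Rbfox1 and Syp rose and bru1 and shep fell. Syp stayed near the floor, with means of 0.0583 RPM before and 1.57 RPM after. With median-of-ratios scaling 2 of the 9 were called higher. Of the 9 linkers, Msp300, shot, cora and beta-Spec rose and none fell. Of the 13 many-peak kinases, for, dco and Pka-R2 fell and none rose, while 6 of the 20 other kinases tested rose and 1 fell. With median-of-ratios scaling 1 of the 13 was called higher and 3 lower. With edgeR's quasi-likelihood test on recovered reads, 221 many-peak genes were called (27.1%, against 18.4% of all 9922 genes tested), 108 upwards and 113 downwards. Fitted on the 8 libraries compared alone, 115 of 777 were called (14.8%, against 10.9% of all 7594 genes tested), 65 upwards and 50 downwards. Without the 3 to 4 h library 37.7% were called, against 23.7% of all genes.

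From 4 to 8 h to 12 to 16 h, as organs form, 333 of 816 many-peak genes (40.8%) were called, against 44.1% of all genes, 234 upwards (28.7%, against 28.3%) and 99 downwards (12.1%, against 15.8%). The totals were near those of all genes, but within score deciles the directions differed from those of other genes. In decile 8, 47.6% of many-peak genes were called higher and 4.76% lower, against 24.2% and 19.6% of genes with 2 to 4 peaks and 19.6% and 24.3% of genes with 1 peak. In decile 9 the shares were 26.9% and 12.0%, against 19.9% and 19.6%, and 20.4% and 21.6%. In the highest decile they lay closer, at 18.7% and 14.2%, against 14.9% and 15.4%, and 20.0% and 20.3%. This comparison shares the 4 to 8 h libraries with the one before and the 12 to 16 h libraries with the next.

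Muscle genes rose together. Of the 9 many-peak genes of the muscle list 8 rose and none fell, as did all 6 of its other genes tested, and Tm1 changed by 0.76 ± 0.26 and did not reach the 2-fold change. wupA, the gene of troponin I, was at 0.579, 6.31, 26.0 and 17.2 RPM and then at 297, 580.4, 1252 and 1534 RPM, without overlap (log2 change 6.45 ± 0.86, limma, adjusted p = 1.96e-06). bt, with 27 peaks, was at 2.60, 3.94, 12.6 and 31.5 RPM and then at 71.3, 81.5, 491 and 396 RPM (4.29 ± 0.70, adjusted p = 2.44e-05). Msp300, with 30 peaks, was at 34.1, 48.9, 61.1 and 45.8 RPM and then at 226, 302, 409 and 640.4 RPM (2.95 ± 0.53, adjusted p = 8.23e-05), and neither gene overlapped between groups.

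ect, dyl, Cht7 and hebe were among the genes that rose most. ect was at 4.34, 41.8, 75.7 and 156 RPM and then at 3014, 6602, 6523 and 3252 RPM (log2 change 6.80 ± 1.03, adjusted p = 9.52e-06). dyl, a zona pellucida protein of the apical matrix, rose by 6.79 ± 1.01 from a highest value of 156 RPM to 1058, 3467, 4109 and 2173 RPM, the chitinase-family gene Cht7 by 5.91 ± 0.72 and hebe by 6.12 ± 0.46. Of the synaptic list, 4 of the 5 many-peak genes rose, as did 11 of its 18 other genes tested. Among the many-peak ones, brp of the active zone rose by 5.57 ± 0.80 and the complexin cpx by 5.30 ± 0.76. The temporal factor chinmo, with 11 peaks, was at 2.60, 9.46, 18.8 and 34.3 RPM and then at 222, 423, 398 and 506 RPM, without overlap (4.87 ± 0.52, adjusted p = 1.54e-07).

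Other lists moved less evenly. Of the 9 linkers, Msp300, the filamin cher and the septate junction protein cora rose and cno fell. Of the 6 many-peak BTB factors, chinmo rose and mod(mdg4) and rib fell. Both many-peak ion channel genes rose, the calcium-activated potassium channel SK by 4.43 ± 0.51 and Shaker (symbol Sh) by 3.62 ± 0.55, as did 21 of 26 other channel genes tested. Of 13 kinases, CASK and the regulatory subunit Pka-R2 rose and Btk fell.

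Genes of the cell cycle and of early neurogenesis were among those that fell most. CycE was at 1146, 944, 729 and 603 RPM and then at 163, 79.9, 54.2 and 56.4 RPM, without overlap (log2 change -3.37 ± 0.41, adjusted p = 7.1e-07). SAK, the kinase of centriole duplication, was at 61.0, 104, 85.4 and 90.2 RPM and then at 0, 7.23, 8.52 and 5.30 RPM (-4.17 ± 0.55, adjusted p = 1.83e-06). The secreted Notch modulator sca fell by 3.91 and the F-box gene Ppa by 3.55 on the log2 scale, both without overlap. KP78b, a kinase gene that shares all 6 of its peaks with KP78a and cannot be told apart from it, overlapped between groups (-2.86 ± 0.81, adjusted p = 0.00558).

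From 12 to 16 h to 20 to 24 h, the last hours before hatching, 232 of 816 many-peak genes (28.4%) were called, against 29.4% of all genes, 53 upwards (6.50%, against 12.6%) and 179 downwards (21.9%, against 16.8%). This split moved with scaling. Over all genes tested the median log2 change stood at -0.36 as deposited and at 0.10 after median-of-ratios scaling, and with that scaling 107 many-peak genes were called higher and 83 lower (13.1% and 10.2%, against 18.1% and 8.65% of all genes). As deposited, 24.5% of many-peak genes in the highest decile were called lower and 4.46% higher, against 15.1% and 3.94% of genes with 2 to 4 peaks and 13.7% and 7.94% of genes with 1 peak. In deciles 8 and 9, 24.8% and 24.5% of many-peak genes were called, against 27.4% and 24.2% of genes with 2 to 4 peaks and 31.9% and 30.3% of genes with 1 peak. The downward shares lay closer there than in the highest decile. Called lower in decile 8 were 18.1%, against 21.2% and 18.1%, and in decile 9 20.2%, against 18.5% and 20.0%. Called higher in decile 8 were 6.67%, against 6.19% and 13.7%, and in decile 9 4.33%, against 5.72% and 10.3%.

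ect and dyl, which had risen, fell to low levels. ect was at 11.1, 10.3, 19.5 and 20.4 RPM in the last 4 libraries (log2 change -8.18 ± 1.03, adjusted p = 1.21e-06), and dyl at 23.1, 11.3, 9.37 and 7.04 RPM (-7.58 ± 1.01, adjusted p = 2.61e-06). Neither overlapped with its values at 12 to 16 h. The actin bundler forked (symbol f), known from bristles and hairs, was at 51.2, 107, 85.6 and 48.1 RPM and then at 0.397, 1.08, 1.56 and 1.48 RPM (log2 change -5.08 ± 0.63), and rib, a BTB factor of tube formation, fell by 3.86 ± 0.58.

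Gasp fell from 4598, 4317, 11243 and 21043 RPM to 1371, 513, 168 and 2036 RPM, without overlap (log2 change -3.56 ± 1.05, adjusted p = 0.0114), a call lost without the 22 to 23 h library (adjusted p = 0.0537). Of the 5 many-peak adhesion genes, Fas3, Fas2, shg and kug fell and mys changed by -0.36 ± 0.35. Of the 23 other adhesion genes tested, 10 fell and none rose. shg encodes E-cadherin and mys a beta integrin. With median-of-ratios scaling the same number, 4 of 5, was called lower.

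Syp, at 7.80, 9.96, 10.5 and 2.27 RPM before, was listed at 0 in all 4 later libraries (limma, adjusted p = 2.48e-06). Of the BTB factors, ttk, Trl and rib were called lower and fru higher, and with median-of-ratios scaling 2 were called lower.

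fru, a BTB factor of the sex determination pathway, rose most. It was at 1.11, 0.977, 3.49 and 0.757 RPM and then at 101, 47.0, 61.7 and 259 RPM, without overlap (log2 change 5.30 ± 0.56, adjusted p = 1.95e-07). Its 5 peaks lay over 45977 bases of the minus strand of 3R, with 74.3% and 21.9% of the score in a pair 33245 bases apart. Zasp66 was at 46.8, 125, 86.8 and 129 RPM and then at 3027, 3196, 4470.5 and 3437 RPM, also without overlap (5.26 ± 1.00, adjusted p = 0.00023).

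Mf was at 121, 340.5, 602 and 1120.0 RPM and then at 4114, 5256, 4998 and 2155 RPM, and did not overlap (log2 change 3.25 ± 1.01, adjusted p = 0.0159). Without the 12 to 13 h library its adjusted p was 0.0694. The dense-core vesicle protein IA-2 rose by 3.24 ± 0.64 and frm by 3.67 ± 0.87, without overlap. Of the 9 many-peak muscle genes, bt, Mf and Zasp66 were called higher and none lower, and 6 of the 9 were called higher with median-of-ratios scaling. Of the 6 other muscle genes tested, as deposited, none was called higher and 1 lower.

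Between larvae and pupae, tested on plus-strand genes alone, 6 of 388 many-peak genes (1.55%) were called, against 3.0% of all 5404 genes tested, 4 upwards (1.03%, against 1.48%) and 2 downwards (0.515%, against 1.52%). With 5 stages a group and large changes between them, 63 of the 388 had an unadjusted p below 0.05, as did 1162 of all 5404 genes. edgeR called 0 of the 5404 genes, and among many-peak genes 40 had an unadjusted p below 0.05. The calls rested on single libraries. Without the L3 clear-gut library there were 24 calls, without pupal day 1 there were 11, without pupal day 5 there were 10, and without any other single library there was 1.

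The pointed-end actin capper tmod, with 13 peaks over 47775 bases, was at 166, 156, 172, 103 and 571 plus-strand RPM in the larvae and at 1162, 4144, 3681, 1949 and 342 in the pupae, with overlap through the clear-gut larvae and day 5 pupae (log2 change 3.08 ± 0.69, limma, adjusted p = 0.0246). bru1, Sesn, which encodes the stress protein sestrin, and the mucin Muc11A were the others called by name, with log2 changes of 4.09 ± 0.97, 2.45 ± 0.60 and -4.21 ± 1.03. Of 16 alternatives, tmod and Sesn were called in 8, Muc11A in 7 and bru1 in 6.

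On pupal day 5 many-peak genes took 55.4% of the signal, against 20.8% to 22.4% on days 1 to 4. CG17298, a gene picked out after its values were seen, was at 425557 RPM on day 5, after 1.88, 5.57, 810.4 and 207 RPM on days 1 to 4. Without CG17298 the share of plus-strand signal on day 5 was 22.4%. CG17298 has 5 peaks, and it reached 404 RPM at 17 to 18 h of embryonic life.

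Adult males and females, with 1 library a sex, allow no test. At 10 RPM or more in either library were 777 many-peak genes. Of these, 154 (19.8%) were at least 2-fold higher in the male and 205 (26.4%) in the female, against 32.5% and 30.1% of all such genes. Among genes with 2 to 4 peaks the shares were 24.5% and 32.7%, and among genes with 1 peak 40.6% and 28.8%. lncRNA:roX1, the RNA of the dosage compensation complex of the male X, was at 267 RPM in the male and 1.68 in the female. Pif1B was at 152 RPM in the male and listed at 0 in the female. It shares 4 of its 5 peaks with Pif1A, which was at 315 and 56.3 RPM, so the signals of both cannot be clearly told apart. Root was at 35.6 RPM in the male and 0.443 in the female, and the kinase subunit Pka-C3 at 156 and 8.33 RPM.

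Among named many-peak genes, the highest ratios of female to male were those of genes known from the germ line, the cell cycle and zygotic genome activation. The mitotic phosphatase stg was at 497 RPM in the female and 7.17 in the male, the germ-line factor ovo at 708 and 14.3, the zygotic genome activator zld at 63.3 and 1.48, and the cyclin CycB at 513 and 12.5 RPM. Among the RNA-binding genes, bru1 and brat were at 704 and 579.8 RPM in the female and at 31.4 and 47.1 RPM in the male, while Syp was at 190.0 and 772 RPM. The muscle genes bt, wupA, up and Prm were 2.35-fold to 2.79-fold higher in the male, and Zasp66 and Tm1 were 2.73-fold and 2.99-fold higher in the female.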

How the data were processed

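Peaks and RPM values (reads per 1000000 reads) were used as the authors deposited them. Per the file headers and labels, the 36 columns are 1 library a stage. Per the submitters' processing notes, STAR, Cufflinks and the dm3 build were used, with no roles or versions given. The deposited peak list gives position, strand, gene and a score per peak, and how the authors made the score is not stated. Peaks were grouped by gene, and genes with 5 or more were taken. RPM came in whole-read steps (tolerance 0.01 reads), which gave the recovered reads. The step at 16 to 17 h lay close to a round decimal fraction, so that library was left out of the count test and of thinning. Minus-strand genes were at 0 in all 5 pupal columns, so breadth used 31 libraries, and pupae were compared with larvae over plus-strand genes rescaled to their own total.

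Tests used limma 3.58.1 (R 4.3.3) on log2(RPM + 1) for genes at 2 RPM or more in at least 3 libraries, with Benjamini-Hochberg adjustment over all genes tested. Genes were called at 2-fold or more with an adjusted p under 0.05. All 24 embryo libraries entered 1 fit of 6 groups of 4 hours (18 residual degrees of freedom), and the course was a spline with 5 degrees of freedom. Larvae and pupae had 8. Neighbouring hours are not replicates of 1 stage, so p-values measure spread between stages as well. Fold changes are on the log2(RPM + 1) scale and understate those of low genes.

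The genes with the largest changes (up to 5 in each direction, called, with a symbol other than a CG or CR number) and the 2 highest of each period were named, with the 12 genes with most peaks and the extremes of span, strongest share, breadth and adult ratio, and leading members of each list. Further list members, Syp and mod(mdg4) were chosen after their values were seen. Members, function lists and naming rules were chosen with earlier results of these data known. Lists were matched by symbol, and 711 of 821 genes had one. An alternative with edgeR 4.0.16 on recovered reads was added after the data had been seen. Promoter and protein sequences were not analysed here, and a few genes and 1 function list are not reported.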

Additional observations from a re-analysis of the deposited data

Results flagged for a closer look

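In 76 groups of 4 or 5 libraries, 6 values lay far from the others of their group by Dixon's test, which by chance marks about 1 in 20 groups. In the pupae, many-peak genes took 55.41% of the signal on day 5, against 20.8% to 22.44% on the other days. In 4 to 8 h, dnc stood at 40.22 RPM at 5 to 6 h, against 20.98 to 21.7 RPM in the other 3 libraries. In 0 to 4 h, apolpp stood at 19.94 RPM at 3 to 4 h, against 4.156 to 5.996 RPM. In 12 to 16 h, fru stood at 3.486 RPM at 14 to 15 h, against 0.757 to 1.114 RPM. In the larvae, the clear-gut L3 library held the highest tmod, at 571.2 RPM against 103.2 to 171.9 RPM, and the highest Sesn, at 95.89 RPM against 31.95 to 41.27 RPM, both as plus-strand RPM.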

How the results depend on the processing

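No paired analysis was possible because the labels give no replicate numbers and each stage is 1 library. With 4 or more peaks as the rule, 1254 genes were called over the course, 374, 573 and 383 in the 3 embryo comparisons in order of time, the median span from first to last peak was 10557 bases and the median share of the strongest peak 83.3%. With 6 or more, 478 were called over the course and 156 and 208 in the earlier comparisons, with a span of 17414 bases and a share of 74.9%. Counting peaks with at least 1% of the score left 283 genes (span 14835 bases, share 60.1%). Counting those with at least 5% left 33 genes (span 14301 bases, share 38.2%, strongest peak most upstream in 18.2%), of which 30 were called over the course, 13, 18 and 15 in the embryo comparisons and 0 between larvae and pupae. These counts of calls grow with the number of genes a rule takes in, and are not shares. Over all genes tested in the main run, 89.8% were called over the course and 17.8%, 44.1% and 29.4% in the embryo comparisons. Between larvae and pupae 3.0% were called. Without peaks listed for more than 1 gene the span was 13871.5 bases and the share of the strongest peak 79.2%.

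The median breadth was 24 of 24 embryo libraries and 30 of 30 after thinning. On the 8 libraries compared alone, 115 genes were called between 0 to 4 h and 4 to 8 h. Between larvae and pupae, 3 were called with no filter and 0 with edgeR. Leaving out single libraries gave 730 to 752 calls over the course, 169 to 308, 297 to 344 and 201 to 258 in the embryo comparisons, and 1 to 24 between larvae and pupae. Of the 34 named contrasts, 28 were called in every alternative run, and no direction reversed. The cause of these differences was not tested. The smallest library held 698702 reads, so that 1 RPM there is less than 1 read.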
